A study of Mus musculus with 9 samples.

Results

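The genes described here encode the enzymes of fat breakdown in adipocytes and the proteins through which adrenergic signals control it. Of 10 listed genes (Pnpla2, Lipe, Mgll, Abhd5, G0s2, Cidec, Adrb3, Prkar2b, Pde3b and Aqp7), 9 had at least 1 probe set annotated with that symbol alone. They held 112 of the 229581 probe sets on the arrays. Adrb3 had no such probe set and was not analysed here. The 8 genes with at least 3 probe sets entered the main test among 11342 genes, out of 16299 symbols, and G0s2, with 2 probe sets, was tested in a fit with no minimum number of probe sets. All 112 probe sets lay above the intensity filter applied to probe sets.

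RNA of perigonadal white adipose tissue was hybridised to exon-level microarrays, with 3 arrays for each of 3 genotypes, all from mice aged 4 months. The G609G mice were homozygous for the G609G allele of Lmna, the gene of the nuclear lamina proteins lamin A and lamin C. This allele is the mouse model of the mutation of Hutchinson-Gilford progeria and increases the truncated lamin A called progerin. The LCS mice were homozygous for the LCS allele of Lmna, which yields lamin C without lamin A, and WT mice carried neither allele. Both alleles are germline changes, so they were present in every cell type of the tissue. Nothing in the labels says whether the RNA of an array came from 1 mouse or from a pool, so p-values measure the spread between these arrays.

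Adipocytes store triglyceride in a lipid droplet and release it as fatty acids and glycerol. The lipases act in turn: Pnpla2 (adipose triglyceride lipase) removes the first fatty acid, Lipe (hormone-sensitive lipase) acts on the diglyceride, and Mgll (monoglyceride lipase) frees the glycerol. Noradrenaline acts on adrenergic receptors, cyclic AMP (cAMP) activates protein kinase A, and the kinase phosphorylates Lipe and the droplet coat protein perilipin, which then lets go of Abhd5, the coactivator of Pnpla2. Insulin opposes this through Pde3b, which degrades cAMP.

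Values are deposited log2 intensities, summarised per gene. Array medians lay between 6.52 and 6.63 in G609G, 7.19 and 7.26 in LCS and 7.17 and 7.28 in WT, so most genes stood lower in G609G as deposited. For the measured lipolysis genes each G609G minus WT fold is therefore given also relative to the median gene. For that, each array was shifted by its median deviation from the gene means. This shift moves every G609G minus WT log2 fold by 0.46 upwards and every LCS minus WT fold by 0.03 downwards. Folds of other genes and of single probe sets are of deposited values unless stated otherwise. Arrays of a group correlated with r between 0.972 and 0.99. The mutated gene Lmna averaged a log2 intensity of 7.23 ± 0.09 in G609G, 7.92 ± 0.16 in LCS and 7.83 ± 0.08 in WT (SD, n = 3 each). In G609G minus WT its log2 fold was -0.60 as deposited (limma adjusted p = 3.25e-05), with no overlap between the groups. Relative to the median gene it was -0.14 and was not called (adjusted p = 0.151). The LCS and WT arrays overlapped, so the gene-level value does not tell these genotypes apart.

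The tissue label was checked against markers. Over 10 mature adipocyte markers the mean log2 intensity of an array lay between 10.74 and 10.79 in G609G, 11.98 and 11.98 in LCS and 11.76 and 11.81 in WT. Leptin (Lep), one of these markers, averaged 4.76 in G609G, under the gene filter of 5.09, against 11.78 in LCS and 10.63 in WT. Its log2 fold of -5.87 in G609G minus WT was the lowest of the 10 and weighs heavily in their mean. As deposited 8 of the 10 were lower and 1 higher in G609G than in WT, where 71.3% of all genes were lower and 8.26% higher. Their median log2 fold was -0.535, against -0.47 over all genes. Relative to the median gene 4 of the 10 were higher and 5 lower, where 34% and 36.7% of all genes were, with a median log2 fold of -0.07. Skeletal muscle transcripts stood apart in G609G: over 11 measured markers of 12 listed, the mean lay between 11.99 and 12.04 in G609G, 5.93 and 6.02 in LCS and 5.61 and 5.69 in WT. The log2 of their summed level was 15.67 to 15.73 in G609G, 11.33 to 11.36 in LCS and 10.28 to 10.39 in WT. For the 10 adipocyte markers it was 15.34 to 15.37 in G609G, 15.89 to 15.91 in LCS and 15.799 to 15.815 in WT. Of the muscle markers, 0 in G609G, 5 in LCS and 5 in WT had a mean under the gene filter of 5.09. Epididymis and testis markers, 10 of 10 measured, had means of 8.57 to 8.69 in G609G, 10.35 to 10.43 in LCS and 12.25 to 12.34 in WT, but they did not move as one. As deposited, 9 were lower and 1 higher in G609G than in WT, where 71.3% and 8.26% of all genes were. Relative to the median gene 8 were lower and 1 higher, where 36.7% and 34% of all genes were. In LCS minus WT 6 were lower and 3 higher as deposited, where 13% and 22.5% of all genes were. In G609G minus LCS 5 were higher and 5 lower as deposited, where 9.38% and 70.5% of all genes were. Spint4 had log2 folds of -0.46 in G609G minus WT and -8.01 in LCS minus WT, and Lcn8 had -8.15 and 0.34. The Spint4 mean in LCS and the Lcn8 mean in G609G are under the gene filter of 5.09. Of the 10 epididymis and testis markers, 2 in G609G, 1 in LCS and 0 in WT had a mean under that filter. Macrophage markers, 7 of 7 measured, had means of 8.28 to 8.5 in G609G, 9.89 to 9.98 in LCS and 9.51 to 9.59 in WT. The part of these transcripts in the results on the lipolysis genes was not tested. In RNA of a whole tissue, fewer adipocytes, less RNA per adipocyte and a larger share of RNA from other tissue cannot be told apart.

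**Figure D1:**
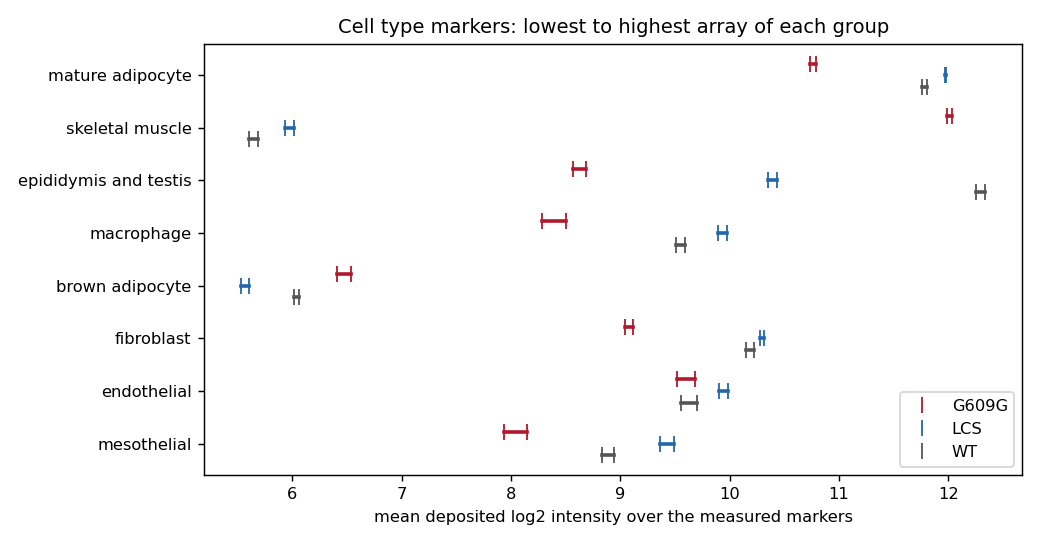
Mean deposited log2 intensity (x axis) over the measured markers of 8 cell types, from the lowest to the highest of the 3 arrays of G609G (red), LCS (blue) and WT (grey). The muscle markers lay between 11.99 and 12.04 in G609G and at most at 6.02 in LCS and WT. The adipocyte markers were at most at 10.79 in G609G and at least at 11.76 in LCS and WT, a gap in which Lep weighs heavily.

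Against WT, G609G adipose tissue had less of most lipolysis transcripts, and they differed widely in size of change. The regulatory protein kinase A subunit Prkar2b, the lipase inhibitor G0s2, the glycerol channel Aqp7 and the lipases Mgll and Lipe fell under both scalings. So did the phosphodiesterase Pde3b, though with a log2 fold of only -0.12 relative to the median gene. The coactivator Abhd5 was higher under both, though not with another summary of its probe sets, and the lipase Pnpla2 was lower as deposited and higher relative to the median gene. Of the 8 genes in the main test, 7 were lower and 1 was higher in G609G as deposited (limma over all genes, Benjamini-Hochberg adjusted p under 0.05). Among all 11342 genes 71.3% were lower and 8.26% higher, so the count alone sets these genes little apart from the rest. No overlap between groups was seen for 8 of 8 genes, against 79.2% of all genes. Relative to the median gene 5 were lower, 2 were higher and Cidec was not called, where 36.7% of all genes were lower and 34% higher. Their median log2 fold was -0.79, against -0.47 over all genes, and -0.33 against -0.01 relative to the median gene.

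Against the same WT arrays, LCS tissue had slightly more of nearly all of these transcripts. As deposited 7 of the 8 were higher, 0 were lower and Pde3b was not called, where 22.5% of all genes were higher and 13% lower. The arrays of LCS and WT were separate for 8 of 8 genes, against 52.2% of all genes. Relative to the median gene 6 were higher and 0 lower, where 22.3% of all genes were higher and 17.7% lower, and centred on each array's median 5 were higher. The median log2 fold was 0.20, against 0.05 over all genes. These rises were small: the largest was that of Abhd5, 0.46 on the log2 scale, and each of the 7 was under the fold of 1.5 that the design text of the series asks for.

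Set directly against LCS, G609G had less of all 8 as deposited, where 70.5% of all genes were lower and 9.38% higher and 81.3% did not overlap. Relative to the median gene 5 were lower, 2 (Pnpla2 and Abhd5) were higher and Pde3b was not called, where 36.9% of all genes were lower and 36.9% higher. The median log2 fold was -0.87 as deposited, against -0.48 over all genes. The 3 comparisons share arrays, so their folds are not independent of each other.

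**Figure D2:**
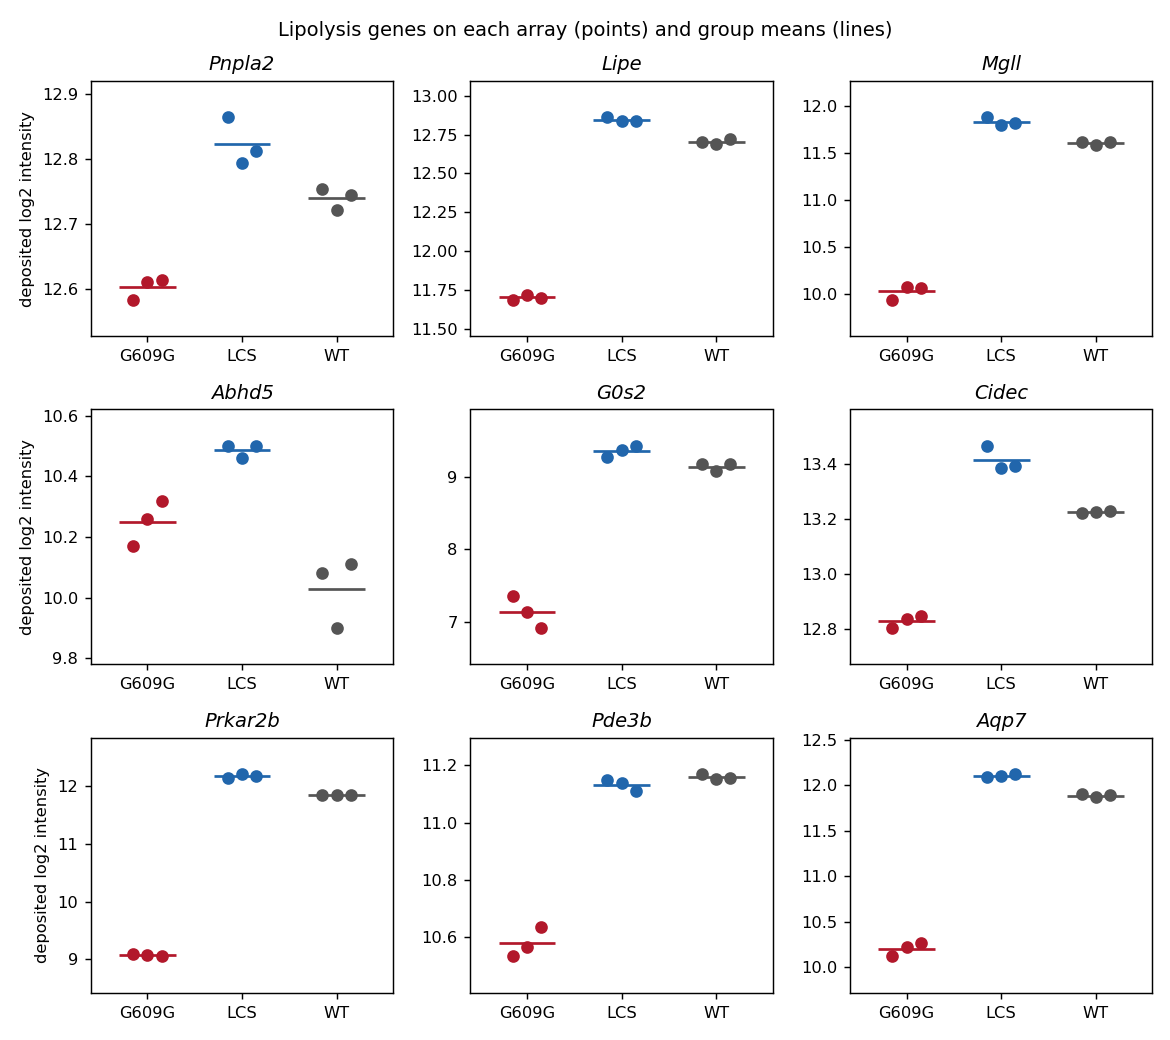
Deposited log2 intensity (y axis, a range of its own in each panel) of the 9 measured lipolysis genes on each of the 3 arrays of G609G (red), LCS (blue) and WT (grey), with lines at the group means. G609G points lie below WT for each gene but Abhd5, and LCS points lie above WT for each gene but Pde3b.

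Pnpla2, which starts the breakdown of triglyceride, had log2 intensities of 12.58, 12.61 and 12.61 in G609G, 12.86, 12.79 and 12.81 in LCS and 12.75, 12.72 and 12.74 in WT. The groups did not overlap, but they lay within a narrow range. In G609G minus WT the log2 fold was -0.14 (SE 0.02, limma adjusted p = 3.84e-05) for deposited values and 0.33 (SE 0.03, adjusted p = 7e-07) relative to the median gene, so its direction turned with the scaling. The LCS minus WT fold of 0.08 (SE 0.02, adjusted p = 0.00742) was 0.05 relative to the median gene, where it was not called (adjusted p = 0.208).

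Lipe, the enzyme that protein kinase A activates, had log2 intensities of 11.69, 11.72 and 11.7 in G609G, 12.86, 12.84 and 12.84 in LCS and 12.7, 12.69 and 12.72 in WT. All G609G arrays were lower than all others by far more than the spread within a group. The G609G minus WT log2 fold was -1.0 (SE 0.02, limma adjusted p = 7.45e-15), a fold of 0.5, and -0.54 relative to the median gene (adjusted p = 6.74e-09). Between LCS and WT it was 0.14 (SE 0.02, adjusted p = 5.72e-05), and 0.11 relative to the median gene (adjusted p = 0.00899). Centred on each array's median it was 0.12 and was not called (adjusted p = 0.0874).

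Mgll, the last enzyme of the sequence, had log2 intensities of 9.95, 10.08 and 10.07 in G609G, 11.88, 11.80 and 11.82 in LCS and 11.62, 11.58 and 11.62 in WT. Among Pnpla2, Lipe and Mgll it had the largest fall. The log2 fold in G609G minus WT was -1.58 (SE 0.04, limma adjusted p = 9.51e-14), and -1.11 relative to the median gene (SE 0.04, adjusted p = 6.43e-11), and 5.22% of tested genes had a lower fold. The LCS minus WT fold was 0.22 (SE 0.04, adjusted p = 0.000437), and 0.19 relative to the median gene (adjusted p = 0.00109).

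The lipases differed in the size of their folds. Within an array, the log2 value of Lipe minus that of Pnpla2 averaged -0.90 ± 0.01 in G609G, 0.02 ± 0.03 in LCS and -0.04 ± 0.02 in WT (SD, n = 3 each), a change in this difference of -0.86 in G609G against WT that no shift of whole arrays can alter. Mgll minus Lipe averaged -1.67 ± 0.06 in G609G, -1.01 ± 0.03 in LCS and -1.10 ± 0.01 in WT, a change of -0.58 in G609G against WT. The arrays of the groups did not overlap in either. An exact two-sided permutation test gave p = 0.1, the smallest that 3 arrays against 3 can give, and an adjusted p of 0.115 over the 15 such differences tested, so neither passed.

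Pnpla2 activity depends on Abhd5, which activates it, and on G0s2, which inhibits it. Abhd5 had log2 intensities of 10.17, 10.26 and 10.32 in G609G, 10.5, 10.46 and 10.5 in LCS and 10.08, 9.90 and 10.11 in WT. WT was lowest here, and LCS was highest. The G609G minus WT log2 fold was 0.22 (SE 0.06, limma adjusted p = 0.00256), and 0.68 relative to the median gene (SE 0.04, adjusted p = 4.72e-08). With the plain mean of the probe sets in place of median polish the deposited fold was 0.05 and the call was lost (adjusted p = 0.509). LCS minus WT gave 0.46 (SE 0.06, adjusted p = 1.98e-05), and 0.42 relative to the median gene (adjusted p = 1.19e-05), and G609G minus LCS gave -0.24 for deposited values and 0.26 relative to the median gene.

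G0s2 had log2 intensities of 7.36, 7.13 and 6.92 in G609G, 9.27, 9.37 and 9.43 in LCS and 9.18, 9.08 and 9.17 in WT. Every G609G array was lower than every array of the other groups. The log2 fold in G609G minus WT was -2.01 (SE 0.10, limma adjusted p = 6.52e-10 over 11716 genes), a fold of 0.249, and -1.55 relative to the median gene (adjusted p = 1.36e-07). It rests on 2 probe sets, with log2 folds of -2.37 and -1.64. The LCS minus WT fold of 0.22 (SE 0.10) was not called (adjusted p = 0.104), but it was called without G609G replicate 1 (adjusted p = 0.0348) or without G609G replicate 3 (adjusted p = 0.0235), and in the fit on the LCS and WT arrays alone (adjusted p = 0.00759).

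Within an array, the log2 value of Pnpla2 minus that of G0s2 was 5.23, 5.48 and 5.7 in G609G, 3.59, 3.42 and 3.39 in LCS and 3.58, 3.65 and 3.57 in WT. All G609G arrays stood above the others, by 1.87 on average against WT, while LCS and WT overlapped. The exact permutation p was 0.1 in G609G against WT and 0.3 in LCS against WT (adjusted p = 0.115 and 0.321). Pnpla2 minus Abhd5 averaged 2.35 ± 0.06 in G609G, 2.34 ± 0.03 in LCS and 2.71 ± 0.10 in WT (SD, n = 3 each). Both mutants were thus lower than WT in this difference, by 0.36 and 0.37, with exact permutation p = 0.1 and adjusted p = 0.115 in each case. With the plain mean of the probe sets the change in G609G against WT was -0.18.

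Cidec, a protein that helps lipid droplets fuse into a large one, had log2 intensities of 12.80, 12.84 and 12.85 in G609G, 13.47, 13.39 and 13.39 in LCS and 13.22, 13.23 and 13.23 in WT. It was lower in each G609G array and higher in each LCS array than in WT. The log2 fold in G609G minus WT was -0.40 (SE 0.02, limma adjusted p = 4.04e-10) and 0.07 on the scale of the median gene, where it was not called (adjusted p = 0.0517). The LCS minus WT fold was 0.19 (SE 0.02, adjusted p = 6.53e-06), and 0.16 relative to the median gene (adjusted p = 0.000823).

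**Figure D3:**
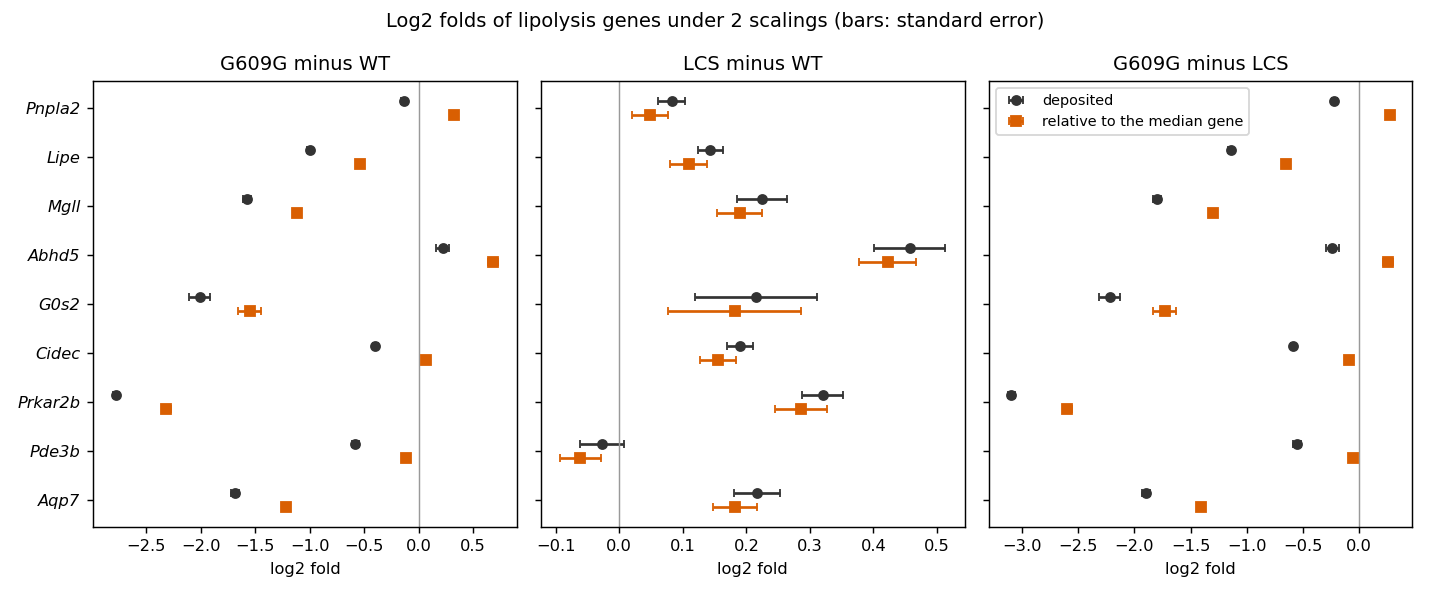
Log2 folds (x axis, a range of its own in each panel) of the 9 measured genes for G609G over WT, LCS over WT and G609G over LCS, with black circles for deposited values and orange squares for values relative to the median gene, with bars for the standard error. Prkar2b has the lowest fold in G609G minus WT at -2.78, Pnpla2 and Cidec lie on different sides of 0 under the 2 scalings there, and in LCS minus WT each gene but Pde3b lies above 0.

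Prkar2b encodes a regulatory subunit that holds the catalytic subunits of protein kinase A inactive until cAMP binds, and is the main such subunit of adipocytes. Its log2 intensities were 9.09, 9.08 and 9.05 in G609G, 12.13, 12.20 and 12.18 in LCS and 11.85 on each of the 3 WT arrays. The gap between G609G and the other groups was many times the spread within them. The G609G minus WT log2 fold was -2.78 (SE 0.03, limma adjusted p = 2.64e-17), a fold of 0.146, and -2.31 relative to the median gene (SE 0.04, adjusted p = 3.09e-13), and only 113 of 11342 tested genes had a lower one. Between LCS and WT it was 0.32 (SE 0.03, adjusted p = 2.16e-06), and 0.29 relative to the median gene (adjusted p = 0.000149).

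The related subunit Prkar2a moved far less. It averaged a log2 intensity of 8.40 in G609G, 8.49 in LCS and 8.48 in WT, with a deposited G609G minus WT log2 fold of -0.08 (limma adjusted p = 0.282), which was 0.38 relative to the median gene (adjusted p = 2.82e-05). Prkar2b minus Prkar2a averaged 0.68 ± 0.11 in G609G, 3.68 ± 0.11 in LCS and 3.37 ± 0.02 in WT (SD, n = 3 each). That difference was lower by 2.69 in G609G than in WT, with no overlap (exact permutation p = 0.1, adjusted p = 0.115).

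Pde3b, the phosphodiesterase through which insulin lowers cAMP, had log2 intensities of 10.53, 10.57 and 10.64 in G609G, 11.15, 11.14 and 11.11 in LCS and 11.17, 11.15 and 11.16 in WT. It was lower in G609G, and the LCS arrays lay just below the WT arrays. The G609G minus WT log2 fold was -0.58 (SE 0.03, limma adjusted p = 1.44e-09), but -0.12 relative to the median gene (SE 0.03, adjusted p = 0.00625), where 41.7% of genes had a lower fold. The LCS minus WT fold of -0.03 (SE 0.03) was not called (adjusted p = 0.6), nor was the fold of -0.06 relative to the median gene (adjusted p = 0.155).

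Aqp7, the channel through which glycerol leaves the adipocyte, had log2 intensities of 10.12, 10.22 and 10.27 in G609G, 12.09, 12.1 and 12.12 in LCS and 11.9, 11.87 and 11.89 in WT. G609G was far below the other groups, and LCS was just above WT. The log2 fold in G609G minus WT was -1.68 (SE 0.04, limma adjusted p = 1.58e-14), a fold of 0.311, and -1.22 relative to the median gene (SE 0.03, adjusted p = 2.21e-11). The LCS minus WT fold was 0.22 (SE 0.04, adjusted p = 0.000261), and 0.18 relative to the median gene (adjusted p = 0.00119).

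Promoter sequences from RefSeq (assembly GRCm38.p6), 250 bases before to 50 bases after a start site, were matched for 8 of the 10 genes, 13 sequences in all. Of 6 short motifs searched on both strands, the full cAMP response element TGACGTCA was in 0 of the 13, against 1.79% of 32851 promoters, and the C/EBP palindrome TTGCGCAA was also in 0, against 0.183%. The E-box CACGTG was in 3 of them, against 7.15% of all promoters: one promoter each of Prkar2b (position -80 from the start site), Lipe (position -155) and Mgll (position -44). These 3 are shown because they hold the E-box and their genes fell in G609G under both scalings, and that of Abhd5 because it was higher under both. The 4 printed promoters lie at chr12:32061228-32061527 (minus strand), chr7:25395938-25396237 (minus strand), chr6:88724162-88724461 (plus strand) and chr9:122351366-122351665 (plus strand). Letters run 5′ to 3′ on the gene's strand, and capitals mark a motif on either strand. Aqp7 and G0s2 also fell in G609G, and their promoters hold no E-box.
Prkar2b: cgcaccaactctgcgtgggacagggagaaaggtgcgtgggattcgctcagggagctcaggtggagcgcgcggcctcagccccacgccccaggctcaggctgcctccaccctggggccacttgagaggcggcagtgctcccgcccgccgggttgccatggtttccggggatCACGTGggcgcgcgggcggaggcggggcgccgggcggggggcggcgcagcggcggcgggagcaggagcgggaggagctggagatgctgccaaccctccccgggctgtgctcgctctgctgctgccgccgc
Lipe: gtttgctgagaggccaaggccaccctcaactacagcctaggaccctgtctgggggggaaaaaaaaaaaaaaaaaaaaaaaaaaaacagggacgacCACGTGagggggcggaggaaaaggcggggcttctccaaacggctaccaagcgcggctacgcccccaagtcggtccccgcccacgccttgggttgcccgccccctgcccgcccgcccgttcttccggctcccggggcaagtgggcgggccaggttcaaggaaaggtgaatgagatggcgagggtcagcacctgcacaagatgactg
Mgll: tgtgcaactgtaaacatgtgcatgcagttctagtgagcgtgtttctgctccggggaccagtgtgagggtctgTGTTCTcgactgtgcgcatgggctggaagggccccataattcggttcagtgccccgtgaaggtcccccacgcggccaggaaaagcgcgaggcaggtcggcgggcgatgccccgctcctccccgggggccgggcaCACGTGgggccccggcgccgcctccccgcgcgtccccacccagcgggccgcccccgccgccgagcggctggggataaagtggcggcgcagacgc
Abhd5: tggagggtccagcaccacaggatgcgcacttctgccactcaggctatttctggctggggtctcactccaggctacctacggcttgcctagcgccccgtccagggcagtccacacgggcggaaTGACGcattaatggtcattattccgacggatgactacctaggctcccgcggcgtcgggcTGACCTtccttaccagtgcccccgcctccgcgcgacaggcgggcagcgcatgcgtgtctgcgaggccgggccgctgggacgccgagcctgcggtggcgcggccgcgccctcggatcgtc
In the Abhd5 promoter the capitals mark TGACG, the core of the cAMP response element and part of the full element where that is present, found in 20.8% of all promoters and also in the G0s2 promoter and in the other Mgll promoter. They also mark AGGTCA, the core of nuclear receptor sites, on the other strand, found in 16.3%. The Mgll promoter also holds AGAACA, the core of glucocorticoid receptor sites, on the other strand, found in 19% of promoters. Both Aqp7 promoters hold AGGTCA and AGAACA, and they overlap each other. A match of letters is a description and not a binding site.

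Most of the 112 probe sets moved with their gene. In G609G minus WT every probe set of Lipe (13), Mgll (16), Cidec (8), Prkar2b (15), Pde3b (22), Aqp7 (13) and G0s2 (2) was lower as deposited, as were 13 of 14 for Pnpla2. Each probe set was compared with the rest of its gene by limma's diffSplice, which shares a variance within a gene, and by the splicing index (the probe set minus the gene value). By diffSplice 20 of the 112 were called between G609G and WT, 2 between LCS and WT and 29 between G609G and LCS, where 15.6%, 1.85% and 18.2% of 158136 probe sets were called. The splicing index called 9, 2 and 17 of the 112. Its share over all probe sets was not counted, so these numbers cannot be set against the rest of the arrays. Only probe sets that both tests called are named, apart from 1 of Abhd5.

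In LCS minus WT both tests called 1 probe set of Aqp7 and 1 of Lipe. Aqp7 probe set 4992993 had log2 intensities of 10.99, 11.03 and 10.91 in LCS and 9.39, 9.11 and 9.31 in WT. It was thus higher by 1.71, while the gene as a whole was higher by 0.22 (adjusted p = 6.37e-17 by diffSplice and 0.0105 by the splicing index). In G609G it had 7.18, 7.74 and 8.06, lower than WT by an amount like that of the rest of the gene. Lipe probe set 5400162 had 13.11, 13.03 and 13.09 in LCS and 12.16, 12.18 and 12.3 in WT. Its log2 fold of 0.86 stood against 0.14 for the gene (adjusted p = 4.79e-09 by diffSplice and 0.0085 by the splicing index). Where these probe sets lie in their transcripts was not analysed here.

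In G609G minus WT, Abhd5 held probe sets that moved in opposite directions. Its 7 higher probe sets reached a log2 fold of 0.47, and the other 2 were lower. Probe set 4705935 had log2 intensities of 8.79, 8.6 and 8.99 in G609G and 9.64, 9.4 and 9.86 in WT, a fold of -0.84 (adjusted p = 3.32e-05 by diffSplice and 0.00218 by the splicing index). Probe set 5492590 had a fold of -0.66, which diffSplice alone called (adjusted p = 0.00101, against 0.148 by the splicing index). The rise of Abhd5 as deposited is therefore that of most of its probe sets and not of all.

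Prkar2b was lower at each of its 15 probe sets, with log2 folds between -4.35 and -1.43. Probe set 4823472 had log2 intensities of 6.11, 6.92 and 7.01 in G609G and 11.09, 11.17 and 10.84 in WT, the lowest fold among the 112 (adjusted p = 4.54e-15 by diffSplice and 0.0049 by the splicing index). Probe sets 4348750 and 4511955 fell less than the rest of the gene, with log2 folds of -1.43 and -1.85. Mgll probe set 5292727 fell by 2.78, more than the rest of its gene, and Aqp7 probe sets 5477649 and 4963296 fell by 2.30 and 1.29. Both G0s2 probe sets were called against each other.

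**Figure D4:**
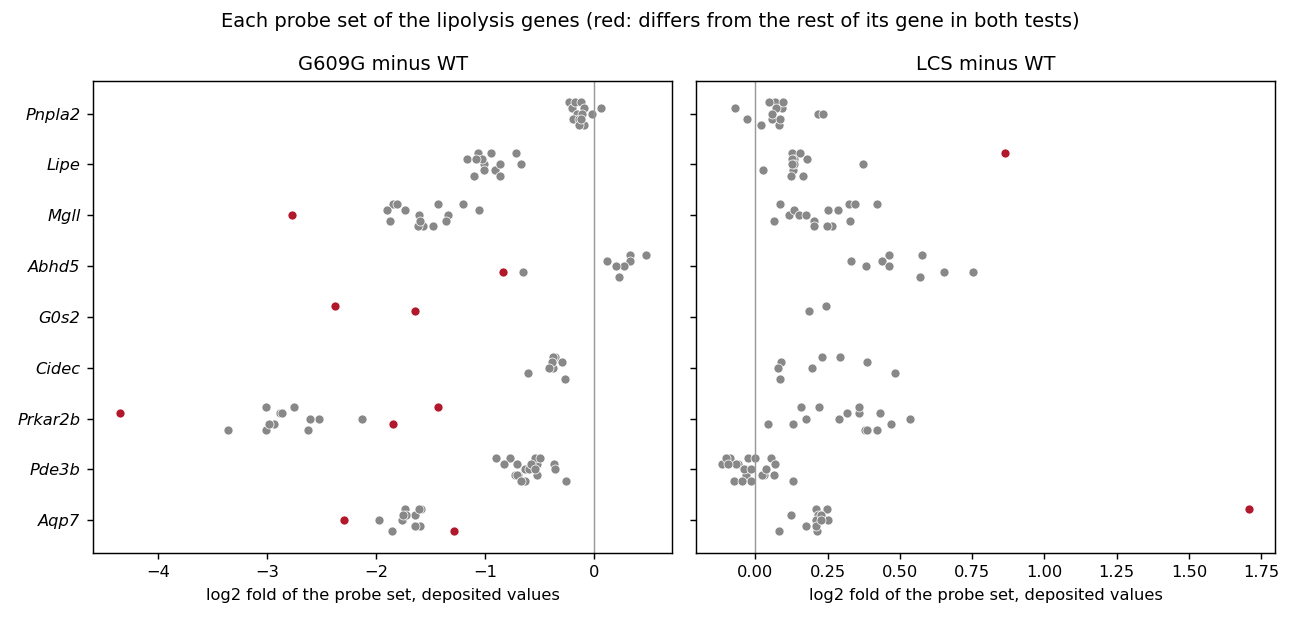
Log2 fold of deposited values (x axis, a range of its own in each panel) for each of the 112 probe sets, by gene, in G609G minus WT and LCS minus WT, with red points for those that both tests set apart from the rest of their gene. Prkar2b reaches -4.35 in G609G minus WT, Abhd5 has 2 probe sets below 0 there, and 1 Aqp7 probe set stands at 1.71 in LCS minus WT.

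Other genes of the pathway were taken from 8 lists of 104 genes, of which 89 were measured and 85 tested. Folds of single genes are deposited ones unless stated. Relative to the median gene each stands higher by 0.46 in G609G minus WT. Their counts stand beside shares of all tested genes of 71.3% lower and 8.26% higher in G609G minus WT, or 36.7% lower and 34% higher relative to the median gene, and of 22.5% higher and 13% lower in LCS minus WT. Upstream of cAMP, 2 of 8 catecholamine receptors were tested, and both fell in G609G as deposited. Adra2c averaged a log2 intensity of 4.81 in G609G, 5.98 in LCS and 5.57 in WT, with a log2 fold of -0.76 in G609G minus WT and 0.41 in LCS minus WT, both called, although its G609G mean is under the gene filter of 5.09. Adra1b had -0.44 (limma adjusted p = 0.00116), which was 0.02 relative to the median gene.

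Of 10 G proteins and adenylyl cyclases tested, 10 were lower and 0 higher in G609G as deposited, where 71.3% of all genes were lower, and 6 were lower relative to the median gene, where 36.7% of all genes were. The calcium-stimulated cyclase Adcy8 fell by 2.52 and Adcy5 by 1.50 on the log2 scale, and the inhibitory G protein subunit Gnai2 had -1.0 and Adcy7 -0.97. Against WT, LCS had 3 higher and 1 lower. Adcy5 had the opposite sign there, with a log2 fold of 1.18 (SE 0.07, limma adjusted p = 9.6e-09), and averaged 7.26 in G609G, 9.94 in LCS and 8.76 in WT. Adcy4 had 0.59 and Adcy7 0.27 in LCS minus WT, and Adcy8 was lower, with -0.28.

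Among 13 protein kinase A subunits, inhibitors and anchors, 9 were lower and 1 was higher in G609G as deposited, where 71.3% of all genes were lower, and 6 were lower and 4 higher relative to the median gene, against 36.7% and 34%. The catalytic subunits Prkaca and Prkacb had log2 folds of -1.47 and -0.67, or -1.01 and -0.20 relative to the median gene. The inhibitor Pkia was higher by 1.0 (SE 0.08, limma adjusted p = 6.26e-08). Pkia is itself abundant in muscle, whose markers were higher on the same arrays, and the part of muscle RNA in its fold was not tested. The anchoring protein Akap12 had -0.80. Against WT, LCS had 0 higher and 2 lower, Akap1 with a log2 fold of -0.38 and Akap7 with -0.30, while Prkar1b (0.26) and Akap8 (-0.12) were not called.

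Of 9 other phosphodiesterases that degrade cAMP, 5 were lower and 2 higher in G609G as deposited, where 71.3% of all genes were lower, and 4 were lower and 4 higher relative to the median gene. Pde7b had a log2 fold of -1.41, Pde4a of -1.20, Pde8a of -0.90 and Pde8b of -0.68. The 2 that were higher were Pde4d with 0.395 and, picked out later, Pde3a with 0.40. In LCS 2 were lower and 1 higher than in WT. Pde8b averaged a log2 intensity of 5.72 in G609G, 5.10 in LCS and 6.40 in WT, so it was lowest in LCS (log2 fold against WT -1.30, limma adjusted p = 3.17e-08). Pde4d had -0.33 and Pde7a 0.23 in LCS minus WT, and Pde4c was not called (-0.16).

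Of 14 lipid droplet and caveola proteins, 8 were lower and 3 higher in G609G as deposited, where 71.3% of all genes were lower, and 4 were lower and 6 higher relative to the median gene. Plin1, the perilipin that holds Abhd5 at the droplet, averaged a log2 intensity of 10.20 in G609G, 11.92 in LCS and 11.75 in WT, a log2 fold of -1.55 in G609G minus WT (SE 0.04, limma adjusted p = 1.12e-13). Abhd5, which it binds, had a positive fold in the same comparison. The caveola protein Cav1 had -1.35 and the droplet protein Plin2 -0.73. Fitm1, a fat storage protein known chiefly from skeletal muscle, averaged 7.21 in G609G, 4.70 in LCS and 4.51 in WT, and its LCS and WT means are under the gene filter of 5.09, so it passed that filter through G609G. In LCS 9 were higher and 1 lower than in WT, among the higher Cavin1 with a log2 fold of 0.68, Fitm2 with 0.43, Plin2 with 0.36 and Plin4 with 0.30. That is 9 of 14, where 22.5% of all genes were higher.

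Of 11 other lipid hydrolases, 9 were lower and 1 higher in G609G as deposited, where 71.3% of all genes were lower, and 6 were lower and 4 higher relative to the median gene. Pnpla3, a relative of Pnpla2, averaged a log2 intensity of 7.48 in G609G, 10.44 in LCS and 9.27 in WT, and so moved in opposite directions in the mutants, with log2 folds of -1.79 in G609G and 1.18 in LCS against WT (limma adjusted p = 1.32e-11 and 8.31e-09). Pnpla7 had a log2 fold of 1.36 in G609G minus WT, Lpl of -0.59 and the endothelial lipase Lipg of -2.32. Lipg was lower in LCS as well, with -1.59. In LCS 1 hydrolase was higher and 4 were lower than in WT, among them Ces1f with -0.56 and Ces1d with -0.14.

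Genes that handle the released glycerol and fatty acids were lower in G609G, 11 of 11 as deposited, against 71.3% of all genes, and 8 of 11 relative to the median gene, against 36.7%, with 1 higher there. Fabp5, a fatty acid binding protein, had a log2 fold of -2.04, Pck1, the enzyme of glyceroneogenesis, -1.26, Gpd1, which makes glycerol phosphate, -1.06, and the fatty acid transporter Cd36 -0.68. In LCS 4 were higher and 3 lower than in WT. Gpd1 was higher by 0.64 (SE 0.04, limma adjusted p = 1.43e-08) and Fabp5 by 0.33. Of the aquaporins other than Aqp7, Aqp11 and Aqp9 had log2 folds of -1.78 and -0.78 in LCS minus WT. Both were lower in G609G as well, with -2.06 and -1.20. Epididymis and testis markers also averaged less in both mutants than in WT, though not as one, and their part here was not tested.

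Receptors that restrain lipolysis or carry peptide and growth hormone signals had the lowest median fold of the 8 lists in G609G minus WT, -1.42 as deposited against -0.47 over all genes, and -0.96 relative to the median gene. Of 15 tested, 10 were lower and 2 higher as deposited, where 71.3% of all genes were lower, and 9 were lower and 4 higher relative to the median gene. The succinate receptor Sucnr1 averaged a log2 intensity of 4.33 in G609G, 8.02 in LCS and 7.84 in WT, a log2 fold of -3.50 in G609G minus WT (SE 0.08, limma adjusted p = 5.76e-14). Its G609G mean is under the gene filter of 5.09. Npr3, which clears natriuretic peptides, averaged 8.06 in G609G, 12.15 in LCS and 11.30 in WT, with a log2 fold of -3.24 in G609G minus WT and 0.85 in LCS minus WT (adjusted p = 2.82e-16 and 3.86e-09). The thyrotropin receptor Tshr had -1.98 and the growth hormone receptor Ghr -1.42 in G609G minus WT, and Ghr had 0.22 in LCS minus WT.

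Further receptors of this list were picked out after their values were seen. The lactate receptor Hcar1 averaged a log2 intensity of 4.92 in G609G, 9.03 in LCS and 8.68 in WT, a log2 fold of -3.77 in G609G minus WT (limma adjusted p = 7.26e-12). The prostaglandin receptor Ptger3 had -2.91, the short-chain fatty acid receptor Ffar2 -2.99 and the niacin and ketone body receptor Hcar2 -2.51. Hcar1, Hcar2 and Ffar2 had G609G means under the gene filter, and Ptger3 stood at 5.11. Not all receptors of the list fell so far: Ffar4 had -0.33 and Insr -0.06, or 0.13 and 0.40 relative to the median gene. Npy1r, a neuropeptide Y receptor outside the main test, averaged 6.68 in G609G, 5.33 in LCS and 5.40 in WT. Npr1, also picked out later, the natriuretic peptide receptor that raises cyclic GMP and promotes lipolysis, was higher by 1.08 in G609G (adjusted p = 8.76e-09) and by 0.24 in LCS (adjusted p = 0.0233). In LCS 5 of the 15 were higher and 2 lower, among them the corticotropin receptor Mc2r with 0.33 and the insulin receptor substrate Irs1 with -0.47. Mc2r was higher in G609G minus WT as well, by 0.33 (limma adjusted p = 9.28e-06), and Irs1 was not called there (-0.27, adjusted p = 0.0531).

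**Figure D5:**
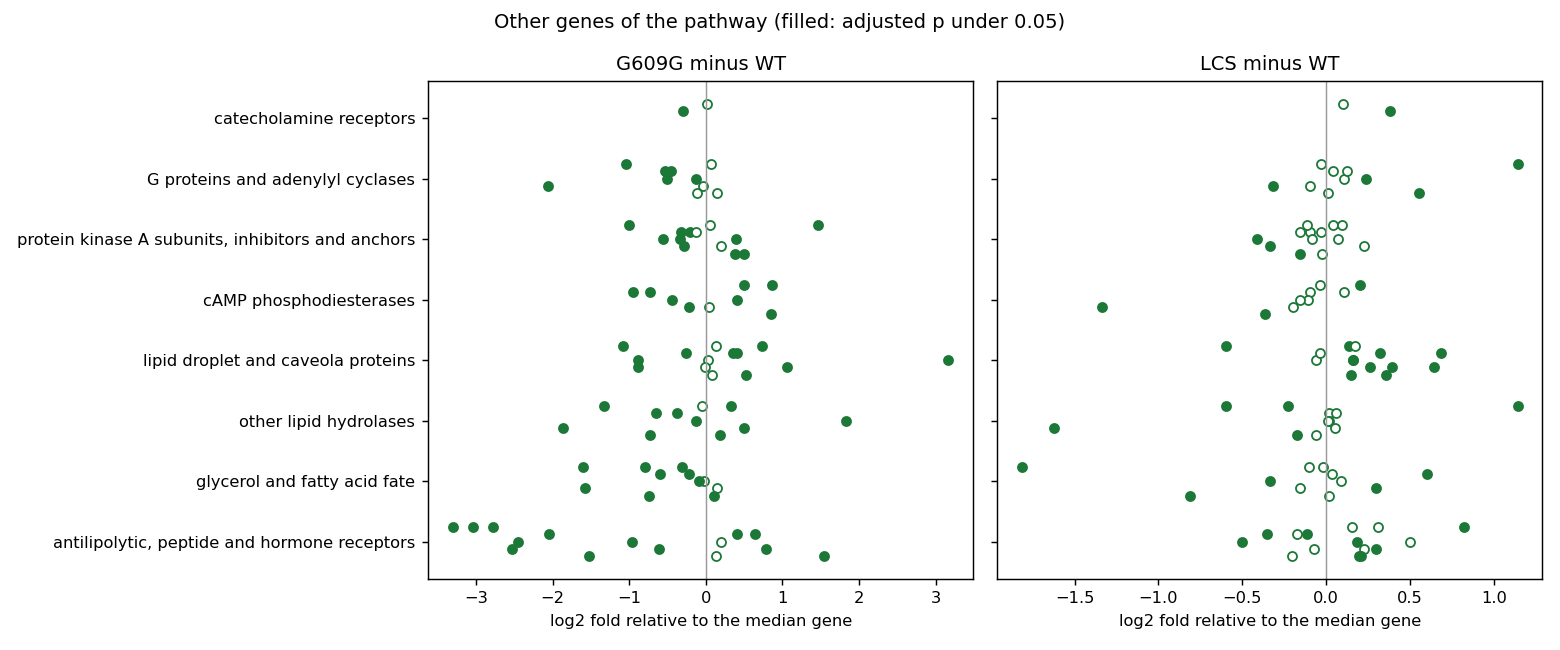
Log2 fold relative to the median gene (x axis, a range of its own in each panel) for the 85 tested genes of the 8 lists, in G609G minus WT and LCS minus WT, with filled points where the adjusted p was under 0.05. The receptor list reaches the lowest folds in G609G minus WT, and 9 of 14 droplet and caveola genes are filled and above 0 in LCS minus WT.

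Across the 9 arrays the genes nearest to each member were found by the root mean square difference between values centred on their own mean, relative to the median gene. This is a description over arrays that share their groups. Nearest to Prkar2b were Nnat (0.052) and Tusc5 (0.060), with log2 folds relative to the median gene of -2.35 and -2.29 in G609G minus WT and 0.20 and 0.32 in LCS minus WT. Nearest to Mgll were Plin1 (0.038), the perilipin named above, and the collagen gene Col1a1 (0.047). Nearest to Aqp7 were the retinol-binding protein gene Rbp4 (0.032) and Lcn2 (0.052).

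The nearest genes of Lipe were Bcap31 (0.020) and Gm2a (0.024). For Abhd5 they were Gpihbp1 (0.052), the endothelial anchor of lipoprotein lipase, and Ifngr1 (0.057), both with positive folds relative to the median gene in both mutants. Pnpla2 had Ppp3cb (0.013) and Gak (0.021), Cidec had Txndc17 (0.027) and the seipin gene Bscl2 (0.029), and Pde3b had Rfk (0.023) and Ccndbp1 (0.027) as the nearest.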

How the data were processed

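The values deposited by the authors were complete and on the log2 scale, covering 229581 probe sets and 9 arrays. Their normalization was not given in the sources used here, and build mm9 is named in the submitters' processing notes. No probe set coordinates are printed. According to the design text there were 10 samples, of which 9 arrays were analysed. Titles put 3 arrays each in G609G, LCS and WT. At most 1.89% of values were identical between 2 arrays, so none was treated as a duplicate.

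The platform annotation gave 1 symbol for 208397 probe sets, and only these formed genes, by median polish. Older symbols of 15 of the 142 measured list genes were matched through RefSeq gene names, and current symbols are printed. Tested genes had a minimum of 3 probe sets and a mean over the 25th percentile (log2 5.09). The limma package fitted all 9 arrays (lmFit, eBayes with a trend), with Benjamini-Hochberg adjustment over all tested genes at a threshold of 0.05. For probe sets above their own 25th percentile (log2 5.01), diffSplice and the splicing index (lmFit and eBayes on probe set minus gene values) were used, and differences between genes within an array were compared by exact permutation. Simulated data with built-in changes were used to test each step, and there diffSplice made more false calls than the splicing index. Software was limma 3.58.1 and the data.table package (version 1.17.8) in R 4.3.3, and matplotlib 3.10.9 in Python 3.11.15.

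The members, gene lists and alternatives were chosen with earlier results of these data known. Genes are named if they are members, Lmna, among the 4 lowest p in a list in either comparison with WT, among the 2 nearest genes of a member, or Prkar2a, with which Prkar2b was compared. The markers Lep, Spint4 and Lcn8 were named for their values, because results on their lists turn on them. Other named genes are marked as chosen later. Same-numbered arrays of G609G and WT deviated together from their group means, with r = 0.168, 0.145 and 0.337, so the numbers of the titles were taken to pair those arrays, although no label says what a number shares. The other comparisons did not meet this rule. The main tests use no pairing. Alternatives changed the scaling, normalization, gene summary, filters, variance model, arrays in the fit, replicate block and test, and left out each array. The number of arrays limits the precision of every value.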

Additional observations from a re-analysis of the deposited data

How the results depend on the processing

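Leaving out each of the 9 arrays in turn lost no call of the 8 genes in the main test. The numbers lower and higher stayed at 7 and 1 in G609G minus WT, 0 and 7 in LCS minus WT and 8 and 0 in G609G minus LCS, and all genes called ranged from 8674 to 9121, 3204 to 4862 and 8596 to 9117. The probe sets that diffSplice set apart ranged from 12 to 26 in G609G minus WT, lowest without WT replicate 1, from 2 to 3 in LCS minus WT, and from 16 to 34 in G609G minus LCS, where they were 18, 17 and 16 without LCS replicates 1, 2 and 3. The replicate block was also tried in G609G minus WT, where the numbers were taken to pair the arrays, although no label says so. There 7 were lower and 1 higher as before, with 9211 genes called in the fit on those 2 groups, against 9020. In LCS minus WT, G0s2 was not called with the block in the fit on all 9 arrays (0.22, adjusted p = 0.102 by limma). In the fit on LCS and WT alone it was called with the block (adjusted p = 0.0071) and without it (adjusted p = 0.00759).

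The scaling turned directions. Centred on each array's median, Pnpla2 had a log2 fold of 0.48, Cidec of 0.22 and Pde3b of 0.038 in G609G minus WT, and with quantile normalization Pnpla2 had 0.14. Relative to the median gene Pnpla2 and Cidec had 0.33 and 0.066. In G609G minus LCS, Pnpla2 had 0.28, 0.42 and 0.11 relative to the median gene, centred and with quantile normalization, and Abhd5 0.26, 0.40 and 0.16, while Cidec had 0.054 and Pde3b 0.088 when centred. Pde3b in LCS minus WT had 0.005 with the median of the probe sets. In G609G minus WT the genes higher numbered 2 relative to the median gene, 3 centred, 2 with quantile normalization and 0 with the plain mean of the probe sets, and the genes lower 4 when centred. In G609G minus LCS, 2 were higher under each of the 3 scalings, with 5 lower relative to the median gene and 4 when centred. Centred, 5 genes were higher in LCS minus WT, without Lipe (0.12, adjusted p = 0.0874 by limma) and Pnpla2 (0.059, adjusted p = 0.407). With quantile normalization 1 gene, Pde3b, was lower in LCS minus WT.

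The methods' t-test, which also asks for a fold of 1.5, called 4 of the 8 genes in G609G minus WT (0 higher and 4 lower), 0 in LCS minus WT (0 higher) and 5 in G609G minus LCS (5 lower), and 5058, 965 and 5370 genes in all. With Benjamini-Hochberg adjustment it called the same numbers of the 8 and 5028, 942 and 5340 genes in all, against 9020, 4032 and 9062 in limma. Its own construction, the fold of 1.5, removes the small LCS rises. Array weights called 6376 genes in LCS minus WT. The splicing index called 9 and 17 probe sets of these genes in G609G minus WT and G609G minus LCS, against 20 and 29 by diffSplice. Its share over all probe sets was not counted.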
